A study of Rattus norvegicus with 6 samples.

Results

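The data describe 9 genes of the p53 pathway and of cell cycle arrest in rat mesenchymal stem cells: Mdm2, Cdkn1a, Ccng1, Sesn1, Phlda3, Gdf15 and Bax, which are known p53 targets, and the CDK inhibitor genes Cdkn2a and Cdkn2b. The genes were chosen by name, with earlier results of these data known. Each was found on 1 row of the deposited table, 9 of 30498 rows in all. RNA sequencing had been run on 3 libraries of cells from femur and tibia marrow (rbMSC in the labels) and on 3 of cells from cranial marrow (rcMSC), which allows these origins to be compared. All cells were labelled wild type (WT), with no treatment named. No source used here gives the strain, age or passage of the cells, or says whether each library came from its own animal or culture. The p-values therefore rest on the spread between libraries, and that spread may be technical.

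The transcription factor p53 is stabilised by DNA damage and other stresses and switches on genes that halt the cell cycle, repair DNA or start apoptosis. One of them, Mdm2, encodes the ubiquitin ligase that destroys p53 and so closes a feedback loop. In senescence, a lasting arrest that limits the expansion of mesenchymal stem cells in culture, the p53 target Cdkn1a (p21) and the INK4 inhibitors from Cdkn2a and Cdkn2b hold cyclin-dependent kinases (CDKs) in check.

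Only 2 of the 9 genes passed the test, Bax (1.51-fold) and Cdkn2b (1.21-fold), both higher in rcMSC. None was lower in edgeR's quasi-likelihood test at an adjusted p under 0.05, with 0 lower at an unadjusted p under 0.05 and 0 by DESeq2 or limma voom. Of all 14836 genes tested, 45.8% passed, 22.6% higher and 23.2% lower, so the 2 higher among the 9 were near the background share of higher genes. Their median log2 fold change (rcMSC over rbMSC) was 0.11, beside 0.02 over all genes. Each of the 9 passed the low-count filter. The 2 groups did not overlap for 3 of the 9 with rcMSC higher and for 2 with rcMSC lower. Of all genes tested, 28.3% and 28.8% did the same, or 57.1% in either direction, so these counts too were near the background.

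One library decided several of these values. Total counts were 21340290 to 26928079 per library, and the chi-square per degree of freedom was 2.69 to 3.16 for each pair of rbMSC libraries and for rcMSC replicates 1 and 2. For rcMSC replicate 3 against the other rcMSC libraries it was 42 and 42.8. The 10 most abundant genes took 20.1% of the counts in that library and 16.6% to 17.5% in the others. Its deviation from rcMSC replicates 1 and 2 was correlated with gene length across genes (Spearman rho 0.227, a description, since genes are not replicates). Of the 9 genes, 8 were lowest of the rcMSC libraries in replicate 3, as were 41.7% of all genes. Without it, 4 of the 9 were higher (Bax, Ccng1, Cdkn1a and Cdkn2b) and 1 was lower (Mdm2), beside 29.9% higher and 30.2% lower of 15096 genes, or 60.1% in all. What sets this library apart was not tested. Values without it are given for each of the 9 genes and for the counts of lists, and every list gene called with all 6 libraries was also called without it. Those values rest on rcMSC replicates 1 and 2 only. Leaving out the most deviant library narrows the spread behind their p-values, so small ones there are not stronger evidence of a difference between origins.

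**Figure D1:**
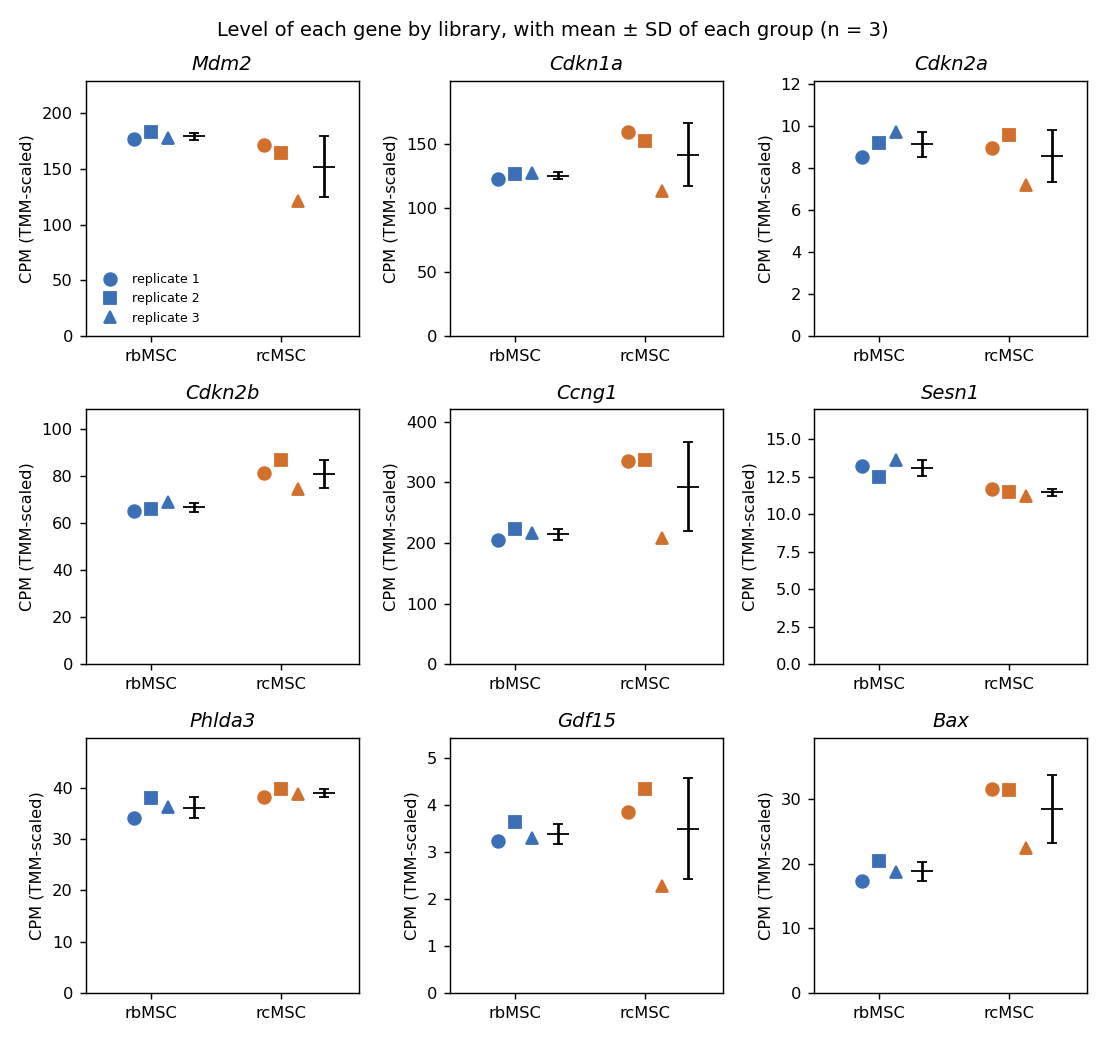
Level of each of the 9 genes in CPM (counts scaled to the library's TMM-adjusted total, y axis from 0) in each library, by group, with the mean and SD of 3 libraries in black. In rcMSC, replicate 3 (triangle) lies apart from the others for Mdm2, Cdkn1a, Ccng1, Gdf15 and Bax, at 208 CPM against 335 and 336 for Ccng1.

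Levels of different genes were compared per length, as CPM (counts scaled to each library's TMM-adjusted total) per kilobase of exons. In rbMSC the order was Ccng1 (71.4 ± 3.13, SD, n = 3), Mdm2 (54.4 ± 0.927), Cdkn1a (52.9 ± 1.07), Cdkn2b (26.7 ± 0.763), Phlda3 (22.7, from 21.5 to 24), Bax (9.49 ± 0.762), Cdkn2a (8.22 ± 0.536), Sesn1 (3.59 ± 0.149) and Gdf15 (2.95 ± 0.191). The ranges of neighbours in this order did not overlap. Ccng1, Mdm2 and Cdkn1a were thus the most abundant of the 9, and the stress cytokine Gdf15 the least by full exon length. The ranks of Bax and Gdf15 are uncertain, as 918 of 1986 and 794 of 1147 exon bases overlap another gene. How reads in those bases were counted is not given. In rcMSC Cdkn1a (59.8 ± 10.5) stood above Mdm2 (46.2 ± 8.18), with overlapping ranges, and Sesn1 (3.14 ± 0.0647) and Gdf15 (3.05 ± 0.942) overlapped as well. The other ranks were the same in both groups.

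Among the regulators, Mdm2 (ENSRNOG00000006304, chromosome 7, 53290664 to 53314915 in mRatBN7.2, as for all positions of genes here) had 177, 183 and 178 CPM in the rbMSC libraries, in replicate order, and 171, 164 and 121 in the rcMSC libraries. All rcMSC libraries lay below all rbMSC libraries, as for 28.8% of genes tested, but replicates 1 and 2 only slightly. Its log2 fold change was -0.24 (SE 0.11, 95% interval -0.50 to 0.02, edgeR adjusted p = 0.12). Without rcMSC replicate 3 it was smaller in size and passed, at -0.10 (adjusted p = 0.0384), and without rcMSC replicate 1 it was -0.33 (0.0486).

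Cdkn1a (ENSRNOG00000000521, chromosome 20, 7149217 to 7159585), the p21 gene through which p53 arrests the cell cycle, had 122, 126 and 127 CPM in rbMSC and 159, 152 and 113 in rcMSC. Replicates 1 and 2 of rcMSC exceeded every rbMSC library and replicate 3 was the lowest of the 6. A log2 fold change of 0.18 did not pass (SE 0.11, 95% interval -0.08 to 0.43, edgeR adjusted p = 0.234). It was 0.32 without rcMSC replicate 3 (SE 0.04, adjusted p = 9.82e-09), and 0.28 with limma voom, which gave that library a low weight (adjusted p = 0.000588).

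Ccng1 (ENSRNOG00000003256, chromosome 10, 25176234 to 25181641), the gene of cyclin G1, a p53 target that acts with a phosphatase on Mdm2, had the highest level of the 9. It had 205, 223 and 216 CPM in rbMSC and 335, 336 and 208 in rcMSC. As for Cdkn1a, rcMSC replicates 1 and 2 stood clear of rbMSC and replicate 3 did not. On the log2 scale the difference was 0.45 (SE 0.18, 95% interval 0.03 to 0.87), and the call depended on the tool: edgeR's adjusted p was 0.0788, or 0.0404 with dispersions not estimated robustly, DESeq2's 0.0097 and limma voom's 0.00118 (log2 fold change 0.60). Without rcMSC replicate 3 it was 0.64 (SE 0.04, edgeR adjusted p = 1.77e-21).

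Sequences were drawn from RefSeq for the bases just before each gene's start (build GRCr8), to show where letters of the p53 half-site occur. Entries were found for 8 of the 9 genes, with 2 for Gdf15, and none for Bax. The p53 half-site consensus, a palindrome searched on both strands, occurred in the 250 bases upstream of Cdkn1a, Ccng1 and Sesn1, and in 6.64% of all 33469 promoter entries. It was not in the windows of Mdm2, Cdkn2a, Cdkn2b, Phlda3 or Gdf15. The windows cover only the starts that had an entry, so other starts and the insides of these genes were not searched. The 3 windows are shown 5′ to 3′ on the gene's strand and end at the base before the start, with the half-site in capitals; a match is a description of letters, not a shown site of binding.
Cdkn1a (chr20:7150682-7150931, plus strand): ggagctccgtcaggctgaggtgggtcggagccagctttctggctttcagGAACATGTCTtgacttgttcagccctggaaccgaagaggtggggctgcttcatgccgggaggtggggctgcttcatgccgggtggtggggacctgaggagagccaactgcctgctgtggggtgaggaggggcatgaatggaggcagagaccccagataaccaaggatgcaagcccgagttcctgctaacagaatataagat
Ccng1 (chr10:25684877-25685126, minus strand): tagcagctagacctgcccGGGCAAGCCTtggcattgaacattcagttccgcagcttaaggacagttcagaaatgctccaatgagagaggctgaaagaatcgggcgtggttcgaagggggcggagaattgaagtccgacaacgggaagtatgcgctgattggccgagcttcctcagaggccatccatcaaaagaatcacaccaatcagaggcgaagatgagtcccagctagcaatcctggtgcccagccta
Sesn1 (chr20:46948469-46948718, plus strand): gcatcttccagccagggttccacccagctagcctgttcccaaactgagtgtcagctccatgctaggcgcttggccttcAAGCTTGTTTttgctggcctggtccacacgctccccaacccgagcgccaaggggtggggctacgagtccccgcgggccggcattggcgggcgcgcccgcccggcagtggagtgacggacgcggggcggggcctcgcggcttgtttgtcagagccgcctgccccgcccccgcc
The half-site lies from -201 to -192 in Cdkn1a, from -232 to -223 in Ccng1 and from -172 to -163 in Sesn1, counted back from the start. The 3 genes did not share a pattern of levels: Cdkn1a and Ccng1 had their highest values in rcMSC replicates 1 and 2, and Sesn1 was lower in every rcMSC library than in every rbMSC library.

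Sesn1 (ENSRNOG00000000302, chromosome 20, 45294871 to 45387697), a sestrin that restrains mTORC1 signalling under stress, had 13.2, 12.5 and 13.6 CPM in rbMSC and 11.7, 11.5 and 11.2 in rcMSC. The groups did not overlap, as for 28.8% of genes tested with rcMSC lower. A log2 fold change of -0.20 did not pass (SE 0.09, 95% interval -0.41 to 0.01, edgeR adjusted p = 0.115), nor did -0.18 without rcMSC replicate 3 (0.149). Its relatives went different ways. Sesn2, a sestrin also driven by the ATF4 pathway, rose from 71.4 ± 0.164 to 126, 138 and 119 CPM (log2 fold change 0.84, edgeR adjusted p = 3.46e-06). Sesn3, a FOXO target, had -0.14 (edgeR adjusted p = 0.0675), and -0.11 without rcMSC replicate 3, where it passed (0.0363).

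Phlda3 (ENSRNOG00000009068, chromosome 13, 47193086 to 47196335) encodes a p53-induced inhibitor of AKT at the membrane. It had 34.1, 38.1 and 36.2 CPM in rbMSC and 38.2, 39.8 and 38.9 in rcMSC. Here rcMSC replicate 3 lay between the other rcMSC libraries. Every rcMSC library lay above every rbMSC library, as for 28.3% of genes tested. A log2 fold change of 0.11 did not pass (SE 0.07, 95% interval -0.05 to 0.26, edgeR adjusted p = 0.228), nor did the same value, 0.11, without rcMSC replicate 3 (0.157). Of its relatives, Phlda1 was lower in rcMSC, at -1.03 on the log2 scale (edgeR adjusted p = 0.000113), and Phlda2, an imprinted gene, had too few counts to test (18 in rbMSC and 21 in rcMSC). Ccng2, the cyclin G relative induced by FOXO factors, had 0.25 (edgeR adjusted p = 0.107), and 0.37 without rcMSC replicate 3, where it passed (1.55e-05). Of the 4 relatives tested, 1 was higher and 1 lower, or 2 and 2 without that library.

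Bax (ENSRNOG00000020876, chromosome 1, 95938808 to 95945368), the pore-forming protein of mitochondrial apoptosis, had 17.4, 20.4 and 18.7 CPM in rbMSC and 31.6, 31.4 and 22.5 in rcMSC. Every rcMSC library was higher than every rbMSC library, as for 28.3% of genes tested. The log2 fold change was 0.60 (SE 0.13, 95% interval 0.30 to 0.89, edgeR adjusted p = 0.00454), and 0.74 without rcMSC replicate 3 (1.3e-11). Tested for a difference beyond 1.5-fold, Bax did not pass (adjusted p = 0.828), and neither did any other of the 9, beside 5.41% of all genes higher and 8.18% lower in that test. The Bax row shares 918 of its exon bases, out of 1986, with a same-strand row of the ferritin light chain gene Ftl1, which was itself higher (0.34, edgeR adjusted p = 0.000689). How reads in the shared bases were counted is not given, so the size of the Bax change is uncertain.

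Gdf15 (ENSRNOG00000019661, chromosome 16, 18805239 to 18808055), a secreted stress cytokine driven by p53 and by the integrated stress response, had the fewest counts of the 9. Its counts were 69, 84 and 83 in rbMSC and 106, 118 and 57 in rcMSC, or 3.23, 3.63 and 3.29 against 3.86, 4.34 and 2.28 CPM. Replicate 3 of rcMSC was the lowest of the 6 libraries and the other rcMSC libraries the highest. Its log2 fold change was 0.05 (SE 0.23, 95% interval -0.47 to 0.57, edgeR adjusted p = 0.875), the widest interval of the 9. It was 0.28 without rcMSC replicate 3, -0.13 without rcMSC replicate 2 and -0.02 without rcMSC replicate 1, and passed in none. Of its 1147 exon bases, 794 overlap Lrrc25 on the opposite strand, a gene of myeloid cells that fell by -1.20 (edgeR adjusted p = 0.000759). The strand setting of the counting is not given, so reads of the pair cannot be told apart.

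The INK4 genes lie side by side on chromosome 5, with 7530 bases between their rows. Cdkn2b (ENSRNOG00000006735, 104010680 to 104019050), which encodes p15, an inhibitor of CDK4 and CDK6, had 65.2, 65.8 and 68.7 CPM in rbMSC and 81.1, 86.5 and 74.6 in rcMSC. The groups did not overlap, as for 28.3% of genes tested with rcMSC higher. Its log2 fold change was 0.28 (SE 0.07, 95% interval 0.13 to 0.43, edgeR adjusted p = 0.00717). It was 0.23 to 0.33 with any 1 library left out, and passed each time. Cdkn2a (ENSRNOG00000059837, 103984949 to 104003149), which encodes p16 and, from another first exon, ARF, an inhibitor of Mdm2, had 8.51, 9.17 and 9.7 CPM in rbMSC and 8.92, 9.54 and 7.16 in rcMSC. Its groups overlapped, with a log2 fold change of -0.10 (SE 0.13, 95% interval -0.39 to 0.20, edgeR adjusted p = 0.583), or 0.01 without rcMSC replicate 3. The row covers all 3 listed transcripts, so p16 and ARF messages were not separated.

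Of the neighbours of this locus on chromosome 5, Mtap, an enzyme of methionine salvage, differed by 0.13 on the log2 scale without passing (edgeR adjusted p = 0.155), and Dmrta1 had 0 counts in every library. Elavl2, a neuronal RNA-binding protein, rose from 1.08 ± 0.201 CPM to 8.74, 9.39 and 11.9 (3.21, edgeR adjusted p = 7.29e-07). Of 12 polycomb and other regulators of the locus, 3 rose and 3 fell, with a median of 0.02 (4 and 4 without rcMSC replicate 3). Ets2 and Ets1, factors that act on Cdkn2a, went opposite ways, at 0.73 and -1.08 (edgeR adjusted p = 3.65e-05 and 0.000417), and the polycomb methyltransferase Ezh2 fell by -0.44 (0.00677). The 3 that rose were 1 without rbMSC replicate 2, rbMSC replicate 3 or rcMSC replicate 1, as the calls of Ring1 and Rnf2 were lost.

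**Figure D2:**
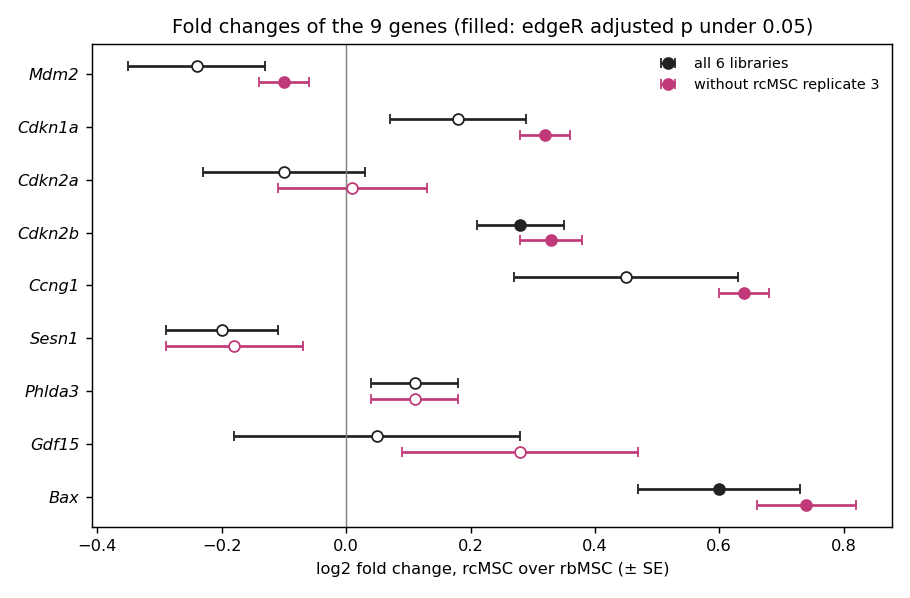
Log2 fold change of each gene, rcMSC over rbMSC, with its standard error, from all 6 libraries (black) and without rcMSC replicate 3 (pink); filled points passed edgeR's adjusted p of 0.05. Cdkn2b and Bax are filled in both, Cdkn1a, Ccng1 and Mdm2 only in pink, and Mdm2 moved from -0.24 to -0.10.

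Dividing each gene's count by the Mdm2 count of the same library gives a value that does not depend on library scaling; these ratios were chosen after the levels had been seen. For Cdkn1a the ratio was 0.689, 0.689 and 0.71 in rbMSC and 0.926, 0.927 and 0.928 in rcMSC, 1.33-fold higher. Replicate 3 of rcMSC, which was low for each gene alone, did not stand apart in this ratio. The rcMSC ratios (SD 0.00115, against 0.0119 in rbMSC) lay closer together than counting noise alone tends to give at such counts. Their closeness is therefore no measure of how tightly the 2 genes vary together. For Bax it was 0.0983, 0.112 and 0.105 against 0.184, 0.191 and 0.186 (1.78-fold), and for Ccng1 1.16, 1.22 and 1.21 against 1.96, 2.05 and 1.71 (1.59-fold). For Cdkn2b and Phlda3 the ratios were also higher in every rcMSC library (1.44-fold and 1.29-fold), but there rcMSC replicate 3 was the highest. On the log2 scale the Phlda3 ratio was 0.36 higher in rcMSC, 0.21 without rcMSC replicate 3 and 0.47 without rcMSC replicate 1, and the Cdkn2b ratio 0.53, 0.43 and 0.62. Groups overlapped for Cdkn2a, Sesn1 and Gdf15. The exact two-sided permutation p was 0.1 for each of the 5, the smallest that 3 against 3 can give, and 0.16 adjusted over the 8 ratios, which share their denominator. A ratio shows an unequal change of 2 genes, not which of them changed. The CPM of Mdm2 was itself lower in every rcMSC library, which raises all 8 ratios there. The share of all genes with a higher ratio to Mdm2 in every rcMSC library was not computed. The 5 higher ratios therefore cannot be read as particular to these genes.

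**Figure D3:**
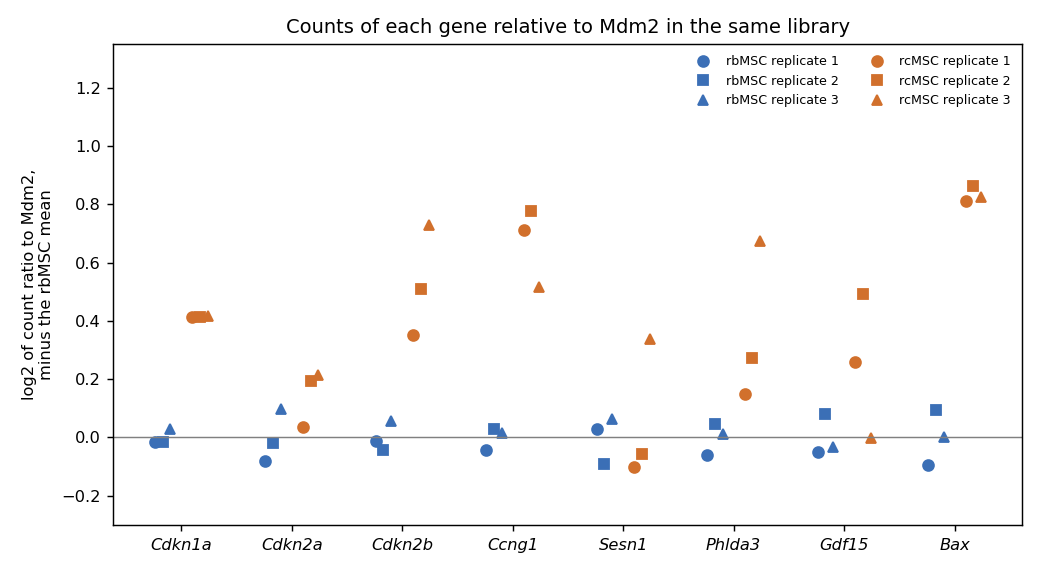
Log2 ratio of each gene's count to the Mdm2 count of the same library (y axis), minus the mean of the rbMSC libraries, for 3 rbMSC (blue) and 3 rcMSC (orange) libraries. The 3 rcMSC points coincide for Cdkn1a, at ratios of 0.926 to 0.928, closer than counting noise alone tends to give. For Bax they lie close together. Replicate 3 is the highest rcMSC point for Cdkn2a, Cdkn2b, Sesn1 and Phlda3 and the lowest for Ccng1 and Gdf15.

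The genes most like Mdm2, Cdkn1a and Cdkn2a were taken as those with the smallest root mean square difference of centred log2 CPM over the 6 libraries, among 11017 genes. For Cdkn1a they were Ptp4a1 (0.015), Skp1 (0.015) and Fbn2 (0.029). Ptp4a1 had 91.9, 94.1 and 96.1 CPM in rbMSC and 122, 114 and 85.9 in rcMSC. Its low value in rcMSC replicate 3 follows from how it was picked and is not a separate result. A search of 11017 genes over 6 libraries can find close matches for many genes. For Mdm2 they were Klhl24 (0.022), Zfp622 (0.029) and Pex19 (0.035). For Cdkn2a they were Crlf3 (0.035), Sccpdh (0.039) and AABR07066529.1 (0.041).

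In the rest of the p53 pathway, Mdm4, the partner of Mdm2 that blocks p53, had 52.1 ± 1.39 CPM against 43, 42 and 54 (-0.17, edgeR adjusted p = 0.17), or -0.29 without rcMSC replicate 3 (3.45e-05). Of 16 rows tested for the core of the pathway, Ep300 having 2, 3 were higher and 3 lower (1 to 6 lower with 1 library left out, 1 without rbMSC replicate 2 and 6 without rcMSC replicate 3). Among those that rose were Rpl5 and Rpl11, ribosomal proteins that bind Mdm2, by 0.78 and 0.54 (edgeR adjusted p = 0.000121 and 0.00707), which have near-identical copies in the genome and are uncertain for that reason. The kinase Atm, which activates p53 after DNA breaks and was named after its values were seen, fell by -0.46 (edgeR adjusted p = 0.00404).

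Of 29 other p53 targets tested, 10 were higher and 6 lower, with a median of 0.14 (14 and 8 without rcMSC replicate 3). Steap3, a ferrireductase, rose by 1.12 (edgeR adjusted p = 1.97e-05) and Rps27l, a ribosomal protein relative, by 0.94 (0.00599). The death receptor Fas fell from 67.5 ± 1.56 CPM to 31.9, 28.6 and 28 (-1.19, edgeR adjusted p = 5.47e-07). Named after their values were seen, the arrest and repair gene Gadd45a rose by 0.93 and the kinase gene Plk2 by 0.87, and the antiproliferative gene Btg2 fell by -0.89 (edgeR adjusted p = 1.54e-06, 5.42e-05 and 0.0231). Btg2's call was lost without rbMSC replicate 1 or 2 (0.0546 and 0.0551). Both directions thus occurred among these p53 targets, as they did among all genes tested (22.6% higher and 23.2% lower).

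Of the 4 CDK inhibitor genes outside the 9, Cdkn1b (p27) rose from 18.5 ± 2.21 CPM to 25.8, 26.8 and 23.4 (0.45, edgeR adjusted p = 0.00469). Cdkn2c (p18) fell by -0.59 (0.0369), a call lost without rbMSC replicate 1, 2 or 3 or rcMSC replicate 2 (0.0685, 0.0811, 0.135 and 0.118). Without rcMSC replicate 3 the count was again 1 higher and 1 lower. Cdkn1c (p57) and Cdkn2d (p19), both at low levels, had 0.18 and 0.37 (edgeR adjusted p = 0.646 and 0.266). Of 18 cyclins, CDKs and genes of the RB and E2F family, 3 were higher and 7 lower, with a median of -0.39 (3 and 8 without rcMSC replicate 3). The mitotic kinase gene Cdk1 fell from 9.72 ± 0.846 CPM to 4.73, 4.05 and 3.48 (edgeR adjusted p = 8.03e-05), and the cyclin genes Ccnb1 and Ccna2 fell by -1.05 and -1.04 (0.00134 and 0.000207).

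**Figure D4:**
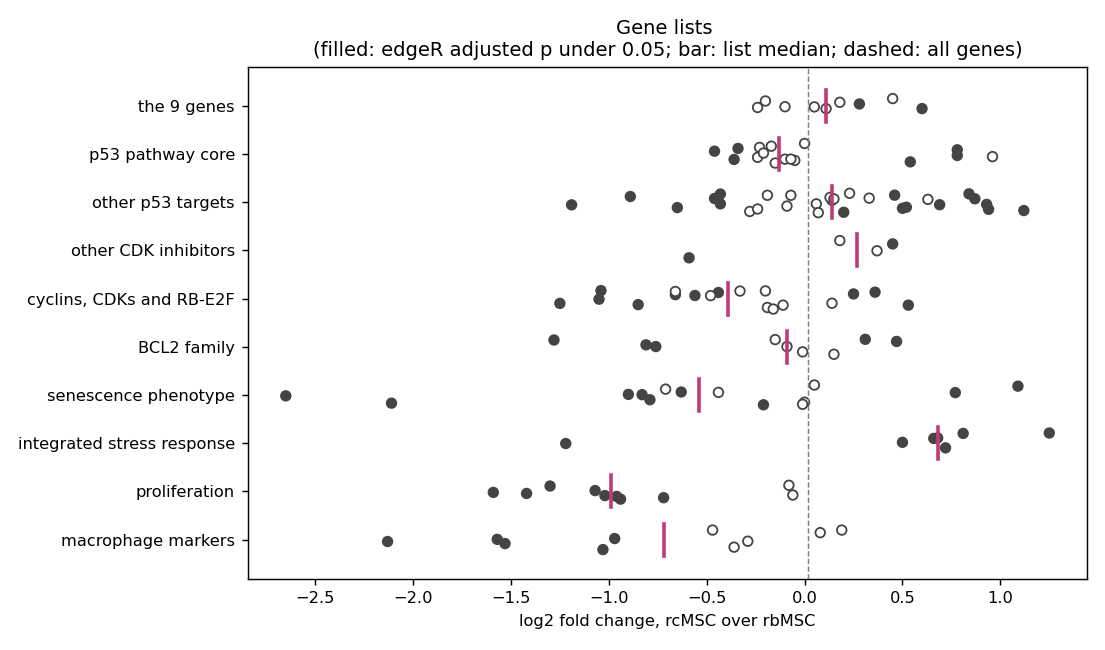
Log2 fold change, rcMSC over rbMSC (x axis), of every tested gene of the 9 and of related lists; filled points passed edgeR's adjusted p of 0.05, pink bars are list medians and the dashed line is the median of all genes. The 9 genes span -0.24 to 0.60 around a median of 0.11. The 29 other p53 targets tested span -1.19 (Fas) to 1.12 (Steap3), and a longer list tends to have a wider range.

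Of 10 proliferation genes, 8 were lower and 0 higher by edgeR (0 higher at an unadjusted p under 0.05, by DESeq2 or by limma voom), with a median of -0.99; without rcMSC replicate 3, 9 were lower and 0 higher. Mki67, the proliferation marker, fell from 121 ± 2.48 CPM to 44.9, 46.8 and 55.3 (-1.30, edgeR adjusted p = 6.17e-07), and the mitotic genes Cdc20 and Plk1 fell by -1.59 and -1.42. Of 14 genes of the senescence phenotype, 2 were higher and 7 lower, with a median of -0.54 (2 and 10 without rcMSC replicate 3). The collagenase Mmp13 and stromelysin Mmp3 fell by -2.65 and -0.90 and the IGF binding protein Igfbp5 rose by 1.09 (edgeR adjusted p = 6.37e-08, 0.0045 and 0.000339). Lmnb1, a lamin lost from senescent cells, fell by -0.79 (edgeR adjusted p = 1.08e-05). Glb1 and Hmgb1 of the same list did not pass (0.05 and 0.00, edgeR adjusted p = 0.548 and 0.973). Il6, also of this list, fell by -0.83 (0.00211). Lmnb1, Glb1, Hmgb1 and Il6 were named after their values were seen.

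Of 9 relatives and partners of Bax in the BCL2 family, 2 were higher and 3 lower, with a median of -0.09 (3 and 4 without rcMSC replicate 3). The BH3-only genes Bmf and Bid, which promote apoptosis, fell by -1.28 and -0.76 and the effector Bok by -0.81 (edgeR adjusted p = 2.8e-05, 0.00094 and 0.00634). Of the 2 that rose, Bak1 and Bad, the call of Bad was lost when any 1 of rbMSC replicates 1 and 2 and rcMSC replicates 1 and 2 was left out (0.107, 0.114, 0.0975 and 0.0804). Of 7 genes of the integrated stress response, an arm of which drives Gdf15 and Sesn2, 6 rose and 1 fell, with a median of 0.68; without rcMSC replicate 3 the counts were again 6 and 1, with a median of 0.75. The pseudokinase gene Trib3 rose from 26.5 ± 0.784 CPM to 61.6, 65 and 62.9 (edgeR adjusted p = 1.87e-07). Chac1, whose product degrades glutathione, rose by 0.81 and the transcription factor gene Atf3 fell by -1.22 (edgeR adjusted p = 0.000675 and 0.000228).

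The mesenchymal surface markers Thy1, Cd44, Itgb1, Nt5e and Eng were found in every library, and all 5 differed between the groups, 3 lower and 2 higher in rcMSC, with or without rcMSC replicate 3. Thy1, Nt5e and Itgb1 were lower (-1.12, -0.99 and -0.43, edgeR adjusted p = 8.58e-08, 0.000157 and 0.00326), and Eng and Cd44 were higher (0.88 and 0.58, edgeR adjusted p = 0.00197 and 6.12e-05). Of 10 macrophage markers, 5 were lower and 0 higher by edgeR (1 higher at an unadjusted p under 0.05, 0 by DESeq2 or limma voom; 6 lower and 1 higher without rcMSC replicate 3), and their summed level was 507 to 520 CPM in rbMSC and 234 to 294 in rcMSC. Ptprc (CD45) had 136 ± 4.88 CPM in rbMSC and 42.5, 38.1 and 56.3 in rcMSC, and Csf1r 157 ± 0.778 against 41.4, 43.6 and 77.3. These 2 were named after their values were seen and do not stand for the list. With all 6 libraries 5 of the 10 did not pass, and 2 of the 10 had a positive log2 fold change. None of the 6 markers of lymphoid, erythroid and neutrophil cells found in the table had enough counts to test, and S100a8 was at 0 counts in every library. In bulk samples fewer cells of a type and less RNA per cell cannot be told apart, and the part of macrophages in the levels of the 9 genes was not tested.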

How the data were processed

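Total RNA of 6 samples of rat mesenchymal stem cells was sequenced. Reads went through Trim Galore 0.6.7, then Trimmomatic 0.39, per the labels' protocols. Alignment was to mRatBN7.2 by STAR 2.7.9a, and gene counting by featureCounts 2.0.1. The submitters' processing notes also name DESeq2 1.20.0. The values the authors deposited are raw counts. No source used here gives the strand setting, annotation release or handling of shared reads. The deposited Length column equals the merged exons of each of the 30498 rows.

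Libraries were grouped by title. The whole table was fitted with edgeR 4.0.16 (R 4.3.3): TMM scaling, filterByExpr, robust quasi-likelihood F test, Benjamini-Hochberg adjustment over 14836 genes, threshold 0.05. CPM are counts scaled to each library's TMM-adjusted total. The SE is the absolute log2 fold change over the square root of F, and 95% intervals use the fit's degrees of freedom. Log2 CPM used a prior count of 2. DESeq2 1.42.0 and limma 3.58.1 (voom) were alternatives.

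The 9 genes and the lists were chosen with earlier results of these data known. Named from each list were up to 3 genes past the threshold, those that changed most among genes with mean log2 CPM above 0 (Mdm4, Mki67, and all CDK inhibitors, relatives and locus neighbours always); others were chosen after their values were seen. Some list genes are counted but not reported here by name. Of 157 list symbols, 150 were in the table. Promoter windows are RefSeq's, build GRCr8.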

Additional observations from a re-analysis of the deposited data

How the results depend on the processing

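With 1 library left out, genes past the threshold numbered 2542 to 4512 higher and 2794 to 4558 lower, and of the 9 genes 2 to 4 were higher and 0 to 1 lower; the highest counts came without rcMSC replicate 3, and the 1 lower gene, Mdm2, also without rcMSC replicate 1. The log2 fold change ranged from -0.33 to -0.10 for Mdm2, 0.09 to 0.32 for Cdkn1a, -0.18 to 0.01 for Cdkn2a, 0.34 to 0.64 for Ccng1 and -0.13 to 0.28 for Gdf15; the reversed signs of Cdkn2a (0.01) and of Gdf15 (-0.02 and -0.13) were all without a call. The ratio of Sesn1 to Mdm2, 0.06 on the log2 scale, ranged from -0.08 (without rcMSC replicate 3) to 0.14, and that of Phlda3, 0.36, from 0.21 (without rcMSC replicate 3) to 0.47 (without rcMSC replicate 1); that of Gdf15, 0.25, ranged from 0.13 (without rcMSC replicate 2) to 0.38 (without rcMSC replicate 3). In the test against 1.5-fold, 802 genes were higher and 1213 lower and 0 of the 9 were higher, with Bax (0.60) and Cdkn2b (0.28) no longer called; the test itself asks for a larger change. With limma voom and quality weights (0.222 for rcMSC replicate 3, 1.26 to 1.46 for the others) 4 of the 9 were higher, Cdkn1a (0.28) and Ccng1 (0.60) now called. Ccng1 was also called with DESeq2 (0.45) and with dispersions not robust (0.45). The cause of these changes was not tested. RLE, upper quartile and library-total scaling, no low-count filter and a filter at a mean log2 CPM of 1 changed no call of the 9.

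With a replicate block, 3046 genes were higher and 3251 lower, 2 of the 9 were higher (Bax 0.58, Cdkn2b 0.28) and 0 lower, the same calls. The labels do not say that equal numbers share an animal or batch. Deviations of same-numbered libraries from their group means were correlated at -0.0275, 0.018 and -0.0518. With 3 libraries per group and rcMSC replicate 3 far from the others, these values cannot decide whether the numbers pair libraries.

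Of the lists, with 1 library left out, lower counts ranged from 1 to 6 in the p53 core (6 with limma voom), 0 to 1 in other CDK inhibitors and 1 to 2 in relatives, and higher counts from 1 to 3 in the BCL2 family, 1 to 4 in locus regulators, 1 to 2 in relatives (2 with limma voom) and 0 to 1 in macrophage markers. Depth limits Gdf15 (57 to 118 counts per library) and Cdkn2a (179 to 259) most.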
